A study of Mus musculus with 8 samples.

Results

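The cells described here are Apln-type sprouting capillary cells of the adult mouse heart, a group of cardiac endothelial cells (EC) marked by transcripts of Apln, Mest, Fscn1, Mycn and Ift122. They were selected on the numbers of unique molecular identifiers (UMIs, each of which marks 1 captured transcript) in single cells. A cell was taken when it held a UMI of the endothelial genes Pecam1, Kdr or Cdh5 and at least 3 of 7 genes (Apln, Mest, Fscn1, Mycn, Ift122, Fxyd6 and Il4i1) with a UMI. It also had fewer than 3 UMIs of Plvap and 0 UMIs of the proliferation genes Mki67 and Top2a, the leucocyte gene Ptprc, the pericyte gene Rgs5 and the venular gene Ackr1. This gave 5901 Apln-type cells among 31028 sequenced cells, of which 1114 came from healthy and 4787 from infarcted hearts. The 16 genes of this choice are described by their values and were not tested, since they made the group.

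All mice were adult Pdgfb-iCreERT2-R26R-Brainbow2.1 animals, in which 1 injection of tamoxifen at 150 mg/kg switches on a fluorescent Confetti colour in cells that use the Pdgfb promoter, so that EC which did not recombine are not in the data. Myocardial infarction (MI) was made by tying off the left anterior descending coronary artery for good, 14 days after tamoxifen, in 4 mice (MI 244, 250, 255 and 256). The other 4 mice (Healthy 227, 228, 239 and 240) were healthy controls, and both groups received tamoxifen. Ventricles were taken 21 days after tamoxifen, which is 7 days post-MI, and CD31+ Confetti+ Podoplanin- cells were sorted and sequenced as 1 droplet library per mouse. The paper's healthy controls had no surgery, so the infarct cannot be told apart from the surgery.

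New capillaries grow from sprouts that are led by tip cells. Tip cells migrate towards vascular endothelial growth factor (VEGF), reshape the basement membrane and secrete peptides such as apelin, while Notch signalling from tip to neighbour holds the stalk cells behind them in check. Apelin, the product of Apln, is made by sprouting EC and acts on the receptor Aplnr on EC around them. Of the other genes used for the choice, Fscn1 encodes fascin, which bundles actin in filopodia, Mycn a transcription factor of the Myc family, Mest an imprinted gene of the hydrolase family, and Ift122 a transport protein of cilia. Fxyd6 encodes a regulator of the sodium pump and Il4i1 an amino acid oxidase.

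The 7 genes lie on 6 chromosomes of mouse genome GRCm38 (GENCODE vM21). Apln is at chrX:48025146-48034853, - strand, Fscn1 at chr5:142960343-142973185, + strand, Mest at chr6:30723547-30748465, + strand, and Mycn at chr12:12936093-12941914, - strand. Ift122 is at chr6:115853470-115926699, + strand, Fxyd6 at chr9:45370185-45396159, + strand, and Il4i1 at chr7:44816387-44840809, + strand. The 250 bases before the RefSeq start sites of Apln and Fscn1 are printed here because these are the naming gene and the most often detected of the 7 counted genes, and those of Adm, the peptide hormone adrenomedullin, because it was among the genes that set the Apln-type cells furthest apart. They come from RefSeq on GRCm38.p6, run 5′ to 3′ on the gene's own strand and lie at chrX:48034854-48035103 (-), chr5:142960105-142960354 (+) and chr7:110627407-110627656 (+). The last 12 bases of the Fscn1 window lie within the gene as GENCODE places it. Capitals mark matches, on either strand, to the hypoxia-response core ACGTG or GCGTG and the GC box GGGCGG, and on the sense strand to TATAAA.
Apln: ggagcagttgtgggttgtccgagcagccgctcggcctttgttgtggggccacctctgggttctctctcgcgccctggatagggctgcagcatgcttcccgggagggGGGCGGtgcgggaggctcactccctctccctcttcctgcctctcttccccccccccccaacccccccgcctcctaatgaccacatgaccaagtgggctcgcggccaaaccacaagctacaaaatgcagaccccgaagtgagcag
Fscn1: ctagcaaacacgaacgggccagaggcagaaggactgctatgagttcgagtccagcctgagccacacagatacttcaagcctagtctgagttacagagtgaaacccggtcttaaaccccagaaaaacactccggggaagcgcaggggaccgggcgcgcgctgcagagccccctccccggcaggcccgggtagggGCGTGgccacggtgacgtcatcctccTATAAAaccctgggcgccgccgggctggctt
Adm: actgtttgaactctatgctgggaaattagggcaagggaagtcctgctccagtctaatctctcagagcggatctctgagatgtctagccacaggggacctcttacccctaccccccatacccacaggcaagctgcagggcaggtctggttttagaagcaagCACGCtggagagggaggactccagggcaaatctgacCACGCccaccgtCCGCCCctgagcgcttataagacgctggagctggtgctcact
The Apln window held 1 GC box, 144 bases before the start site. The Fscn1 window held 1 hypoxia core 57 bases and a TATAAA 31 bases before it, and the Adm window 2 hypoxia cores (90 and 54 bases before it) and 1 GC box. Of the other windows found for the 7 genes, each of the 3 of Mest and that of Il4i1 held 1 GC box, that of Mycn 2 GC boxes, and that of Fxyd6 no match. Windows 2 and 3 of Mest overlap and hold the same GC box. Among all 32851 windows of this length in the table, 38.6% held a hypoxia core, 32.7% a GC box and 7.59% a TATAAA on the sense strand, and matches describe letters and not sites in use. Ift122 had no entry.

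Libraries held 6764977 to 8793655 UMIs in healthy and 15865234 to 27244947 UMIs in MI mice, so depth and group cannot be told apart. Key results are also given with every cell thinned to an equal number of UMIs. For the shares, the rule was applied again after thinning. For the gene tests, thinned cells kept the class given to them at full depth, so the choice of cells was still made at unequal depth. The deposited table held 2041 barcodes of Healthy 228 that were also in Healthy 239 and 316 of Healthy 227 that were also in Healthy 228, against 10 to 40 for the other 26 pairs of libraries. These 2357 cells were dropped from Healthy 228 and Healthy 227, and results were also computed without both mice. In the remaining 28671 cells, 27978 held a UMI of an endothelial gene, and 20575 also passed the limits on Plvap and the 5 absent genes. The 14674 of these with fewer than 3 of the 7 genes are called other gated cells below. They include 3252 arterial-type cells, defined as those with at least 3 of 8 arterial genes. Apln-type cells held a median of 2759 to 4064 UMIs per healthy mouse and 4395 to 4955 per MI mouse, and other gated cells 1772 to 2564 and 2791 to 3300, so the Apln-type cells were deeper as well, a property that a rule on detected genes favours.

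Endothelial genes are described first. The rule asked for a UMI of Pecam1, Kdr or Cdh5, so the presence of these 3 was fixed by the choice and checks nothing. Levels are given as CPM, the UMIs of a gene per 1000000 UMIs of the class in 1 mouse. Values of 4 mice are always in the order Healthy 227, 228, 239, 240 or MI 244, 250, 255, 256. In Apln-type cells, Pecam1 (CD31) was at 735, 667, 779.7 and 744 CPM in the healthy mice and 879, 818, 889 and 805 CPM in the MI mice, and Cdh5 (VE-cadherin) at 998, 992, 883 and 931 CPM in the healthy mice and 1034, 1046, 955 and 955 CPM in the MI mice. Kdr, the main VEGF receptor, was at 794, 787, 635 and 693 CPM in the healthy mice and 475, 526, 458 and 560.1 CPM in the MI mice, and all 4 healthy mice were above all 4 MI mice. Plvap, a protein of capillary diaphragms kept low by the rule, was at 1.66, 6.95, 4.27 and 0.636 CPM in the healthy mice and 59.9, 38.5, 80.3 and 45.3 CPM in the MI mice. The 13 genes of the capillary list summed to 27584 to 30645 CPM in healthy and 24931 to 30109 CPM in MI mice, with Fabp4, a fatty acid carrier, the most abundant of those named here at 16148 ± 1049 CPM (SD, n = 8 mice). None of these 13 genes was used by the rule. One of them, the fatty acid transporter Cd36, was detected at 1000 UMIs per cell in 80.9% of healthy and 76.8% of MI Apln-type cells. In pericyte-type cells it was detected in 51.0% and 60.9%, and in macrophage-type cells in 31.7% and 26.4%, so detection of Cd36 alone does not set EC apart. Sprouting as a behaviour was not measured.

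Markers of other cell types were present. The 6 macrophage markers summed to 16.6 to 63.3 CPM in the Apln-type cells of healthy mice and to 252 to 546 CPM in those of MI mice, with none of the 6 at 0 in all mice of a group. At least 2 macrophage markers with a UMI were found in 0.718% of the healthy and 31.1% of the MI Apln-type cells. In other gated cells the same markers summed to 22.1 to 421 and 879 to 2797 CPM, while at least 2 were found in 0.541% and 19.2% of cells. In MI mice the summed level was thus higher in other gated cells and the share of cells with 2 markers higher in Apln-type cells. These shares are at full depth, where the Apln-type cells of MI mice held more UMIs (median of 4709 against 3029.5). The 6 fibroblast markers summed to 1.74 to 9.98 CPM in healthy and 40.2 to 204 CPM in MI mice, and Pdgfra, a defining one, was at 0 in the healthy mice. The 7 pericyte markers summed to 8.26 to 18.8 CPM in healthy and 15.7 to 22.1 CPM in MI Apln-type cells, against 4.34 to 10.8 and 9.43 to 14.1 CPM in other gated cells. Both pericyte markers that could be tested, Kcnj8 and Abcc9, were higher in Apln-type than in other gated cells (log2 fold changes 2.18 and 0.90). The 6 erythroid or platelet genes, mostly globins, summed to 363 to 7819 CPM in healthy and 1672 to 6813 CPM in MI Apln-type cells and to 1489 to 6669 and 1496 to 16121 CPM in other gated cells. Of these 6, 0 were higher and 2 lower in Apln-type than in other gated cells. Lower in Apln-type cells were 6 of 6 macrophage, 4 of 6 fibroblast, 3 of 4 lymphatic and 2 of 2 smooth muscle genes tested. Over all 11559 genes tested between these classes, 17.4% were higher and 17.4% lower. The 7 cardiomyocyte markers summed to 36.9 to 69.5 and 35.9 to 83.2 CPM. Whether these transcripts come from free RNA, doublets or the cells themselves was not tested.

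The number of the 7 genes per cell showed how the group is built. Of the Apln-type cells, 2577 (43.7%) held exactly 3 of the 7 genes, 1746 (29.6%) held 4, 1037 (17.6%) held 5, 452 (7.66%) held 6 and 89 (1.51%) held all 7. The limit of 3 cut through a continuous range, as 3854 gated cells held 2 of the genes. Apln-type cells carried 87 different combinations. The most frequent was Mest with Fscn1 and Fxyd6, found in 448 cells (7.59%), and it did not include Apln. Fscn1 was the shared core, detected in 88.9% ± 2.38 (SD, n = 4) of healthy and 95.4% ± 1.57 of MI Apln-type cells. Apln itself was detected in 40.0% ± 4.82 of healthy and 43.5% ± 5.42 of MI cells, with a range of 35.3% to 46.0% over healthy and 35.8% to 47.9% over MI mice. So 2462 Apln-type cells held an Apln UMI and 3439 did not. Ift122 was detected in 66.2% and 66.4%, Fxyd6 in 58.7% and 61.9%, and Il4i1 in 8.39% and 9.86% of healthy and MI cells.

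Detection of the rule's genes in each group is given as a description, and the MI cells were deeper (median of 4709 against 3080 UMIs). Fscn1 was detected in 85.5% to 90.5% of the Apln-type cells of healthy mice and in 94.0% to 97.3% of those of MI mice. Mest was detected in 52.0% ± 3.76 of healthy and 76.8% ± 2.97 of MI Apln-type cells, while Mycn went the other way, from 58.3% ± 6.98 to 42.3% ± 5.17. On the CPM scale, Mycn was at 211, 228, 388 and 365 CPM in the healthy mice and 121, 148, 163 and 127 CPM in the MI mice, and every healthy mouse was above every MI mouse. Mest was at 263, 203, 319 and 275 CPM in the healthy mice and 469.5, 512, 518 and 403 CPM in the MI mice, with every MI mouse above every healthy mouse. Apln was at 296, 222, 333 and 228 CPM in the healthy mice and 259.6, 164, 237 and 248 CPM in the MI mice, and its groups overlapped. Detection in other cell types is set beside these values, although the rule fixed in advance that Apln-type cells would hold more. The pericyte-type cells were not free of endothelial transcripts, as Cdh5 was detected at 1000 UMIs in 29.0% of healthy and 25.9% of MI ones. In 145 and 174 pericyte-type cells and 60 and 701 macrophage-type cells of healthy and MI mice, thinned to 1000 UMIs, Apln was detected in 0 to 2.0% and Fscn1 in 3.33% to 10.6%. In Apln-type cells thinned in the same way, Apln was detected in 19.6% of healthy and 16.3% of MI cells and Fscn1 in 49.5% and 52.9%, while Mest was detected in 23.1% and 35.3% and Mycn in 30.2% and 13.6%. Other gated cells at 1000 UMIs held Apln in 1.03% and 2.28%, Fscn1 in 17.8% and 26.1%, Mest in 3.65% and 7.47% and Mycn in 4.84% and 3.22%. The median UMIs of the pericyte-type and macrophage-type cells before thinning, 4810 to 8118, were above those of the Apln-type cells of either group (3080 and 4709).

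**Figure D1:**
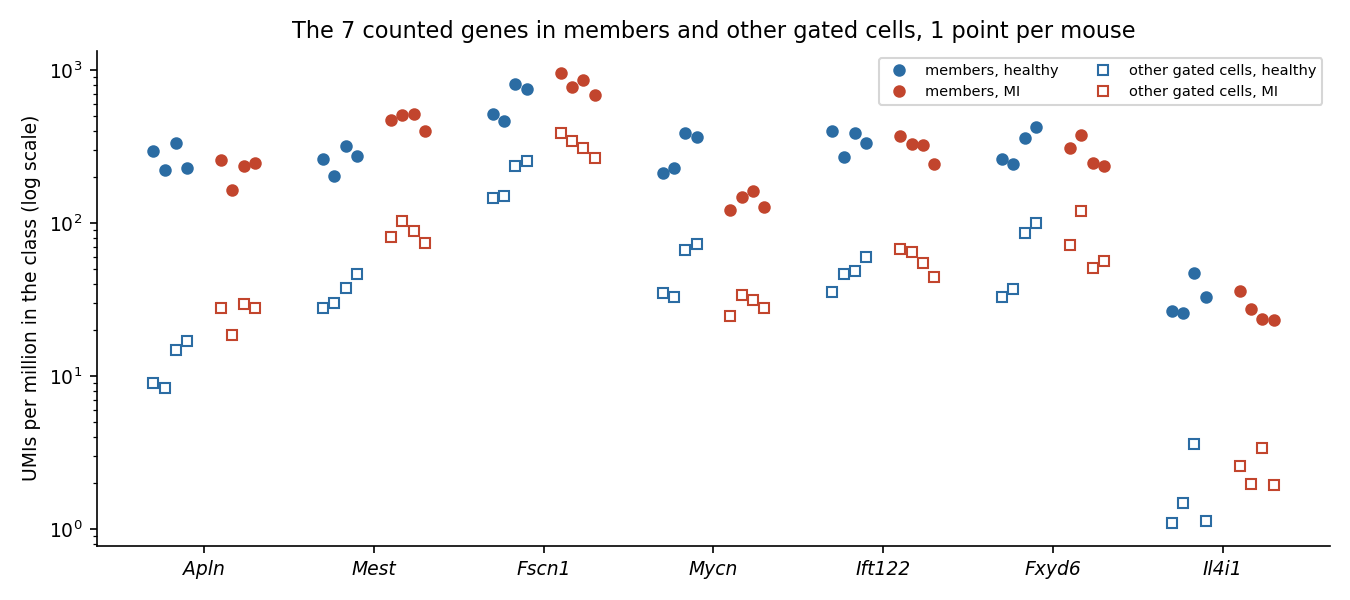
Levels of the 7 counted genes in Apln-type cells (members, filled circles) and in other gated cells (open squares), in CPM on a log scale, with 1 point per mouse and healthy mice in blue and MI mice in red. Mest was higher and Mycn lower in all 4 MI mice than in all 4 healthy mice within the members, and the step between members and other cells was made by the choice of cells.

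The share of Apln-type cells among EC was compared between healthy and MI hearts. Of the EC with a UMI of Pecam1, Kdr or Cdh5, they made up 5.82%, 7.75%, 10.3% and 14.9% in the healthy mice and 31.0%, 33.4%, 23.9% and 20.7% in the MI mice. Every MI mouse was above every healthy mouse. The means were 9.70% ± 3.93 and 27.2% ± 5.93 (SD, n = 4 mice each), a difference of 17.5 percentage points. The group was chosen with such shares in view, so this comparison describes the mice at hand and no p-value is given for it.

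Depth moved with this result. When each cell was thinned to 1000 UMIs, leaving out 546 healthy and 0 MI endothelial cells with fewer, and the rule was applied again, the shares were 1.10%, 1.56%, 4.49% and 4.53% in healthy and 11.3%, 9.89%, 7.76% and 5.10% in MI mice. The groups still did not overlap (2.92% ± 1.84 against 8.51% ± 2.70), but Healthy 239 and 240 came within 1 percentage point of MI 256. At 2000 UMIs, where 4744 healthy and 691 MI cells were left out, the shares were 4.98%, 4.24%, 11.9% and 15.6% against 22.8%, 22.1%, 16.9% and 13.0%, and Healthy 240 was above MI 256 (difference of the means 9.54 percentage points). Only 26.1% of the healthy and 21.2% of the MI Apln-type cells met the rule again at 1000 UMIs, so the share as such depends on depth. Without both Healthy 227 and Healthy 228, which were the lowest of the mice, the difference was 14.6 percentage points at all UMIs and 4.0 at 1000 UMIs.

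**Figure D2:**
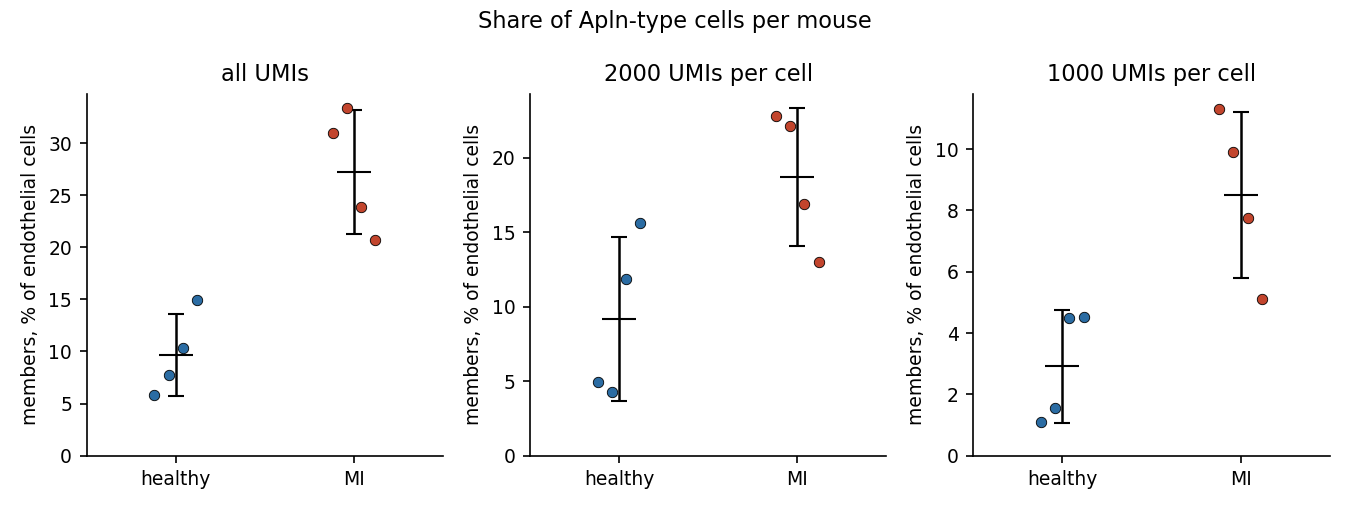
Apln-type cells as a percentage of endothelial cells in each mouse, at all UMIs and with every cell thinned to 2000 or 1000 UMIs. Points are mice, and lines are means with SD of 4 mice. Healthy and MI mice did not overlap at all UMIs or at 1000 UMIs and overlapped at 2000 UMIs.

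Apln-type cells were next compared with the other gated cells of the same mice, to see which genes go with the choice. Of 11559 genes tested with a block for the mouse, 2013 were higher (17.4%) and 2011 were lower (17.4%) in Apln-type cells at an adjusted p under 0.05. In cells thinned to 1000 UMIs the counts were 950 and 918, and without the mouse as a block 808 and 676. The 7 genes came from an earlier grouping of these same cells, so genes that vary with them were likely to differ, and the p-values show only how steady each difference was over 8 mice. Other gated cells were also matched to the Apln-type cells on UMIs, and a match was found for 4330 of the 5901. All 5901 stayed in the comparison, so depth was brought closer but not made equal. In MI mice the median was 4395 to 4955 UMIs per mouse in Apln-type cells and 3684.5 to 4109.5 in the matched cells. Under this alternative every gene named as higher or lower in this comparison kept its direction and its call. The pericyte markers Kcnj8 and Abcc9 are the exception, as no alternative was run for them. Without the mouse as a block, C1qa, C1qb, C1qc, Lyz2, Clu, Dll4, Cd36, Col18a1, Cdk1, Cks2, Pkm, Gapdh, Ankrd37 and Fos did not pass in it (adjusted p = 0.063 to 0.84).

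Among genes with at least 20 CPM in Apln-type cells and one direction in every mouse, the 3 genes furthest up were Kit, Adm and Pgf. Kit, the receptor for stem cell factor, was at 73.2, 60.8, 46.2 and 54.0 CPM in the healthy mice and 37.2, 33.2, 33.8 and 39.8 CPM in the MI mice in Apln-type cells. In other gated cells it was at 9.87, 12, 6.66 and 14.7 CPM in the healthy mice and 11.8, 10.8, 9.78 and 12.6 CPM in the MI mice. It was higher in Apln-type cells in 8 of 8 mice (log2 fold change 1.99, SE 0.12, adjusted p = 2.9e-11). Adm was at 201, 196, 295 and 271 CPM in the healthy mice and 152, 159, 177 and 183 CPM in the MI mice in Apln-type cells and at 35.5, 56.2, 54.3 and 79.1 CPM in the healthy mice and 41.4, 54.4, 42.8 and 58.0 CPM in the MI mice in other gated cells, with no overlap (log2 fold change 1.93, SE 0.08, adjusted p = 4.1e-14). Pgf, which encodes placental growth factor, a ligand of Flt1, was at 74.9, 29.5, 109 and 74.4 CPM in the healthy mice and 73.4, 78.9, 95.1 and 76.7 CPM in the MI mice and in other gated cells at 1.97, 2.99, 16.9 and 6.98 CPM in the healthy mice and 33.4, 32.8, 41.2 and 18.6 CPM in the MI mice. The lowest Apln-type value of Pgf, in Healthy 228, was below the highest of the other cells, but each mouse was higher in its own Apln-type cells (log2 fold change 1.87, SE 0.21, adjusted p = 3.0e-07). The rest of the 8 highest genes were the small GTPase Arl4c (1.55), the Ras-binding protein Rassf2 (1.55), Gsap (1.45), Tnfaip8l1 (1.41) and the predicted gene Gm9844 (1.40), as log2 fold changes, each higher in 8 of 8 mice.

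Aplnr, the apelin receptor, was at 699.9 ± 101 against 435 ± 86.6 CPM (mean ± SD, n = 8 mice) in Apln-type against other gated cells and was higher in 8 of 8 mice (log2 fold change 0.71, SE 0.05, adjusted p = 2.2e-10). Nrp2, a co-receptor of VEGF-C and semaphorins, was at 432 ± 77.7 against 194 ± 18.3 CPM (log2 fold change 1.15, SE 0.05, adjusted p = 3.9e-14). Flt1, the VEGF receptor that acts as a decoy, was lower in 8 of 8 mice, at 351 ± 31.0 against 672 ± 106 CPM (log2 fold change -0.88, SE 0.06, adjusted p = 4.6e-11). Vegfc, a VEGF ligand, was lower as well at 50.9 ± 11.6 against 127 ± 35 CPM (log2 fold change -1.29, SE 0.07, adjusted p = 1.4e-12), but not against other gated cells without the arterial-type cells (log2 fold change -0.15, adjusted p = 0.14). Of 8 tested genes of the VEGF list, 2 were higher and 4 lower (median log2 fold change -0.15, against -0.01 for all genes). Of 9 stalk or phalanx genes 1 was higher, Aplnr, and 7 were lower.

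Among tip cell genes, 14 of 23 tested were higher and 7 lower, with a median log2 fold change of 0.43. Beside Adm and Pgf, these included Nid2, a nidogen of the basement membrane, at 97.4 ± 22.7 against 40.9 ± 15.4 CPM (log2 fold change 1.22, SE 0.08, adjusted p = 7.4e-11), and Trp53i11 at 444 ± 62.1 against 204 ± 32.8 CPM (log2 fold change 1.15, SE 0.05, adjusted p = 8.2e-14). Angpt2, the Tie2 ligand that loosens vessels, was at 41.6 ± 15.5 against 22.4 ± 5.32 CPM (log2 fold change 0.82, SE 0.09, adjusted p = 1.4e-07). Marcksl1, Lxn and the sialomucin Cd34 were also higher (log2 fold changes 1.13, 0.83 and 0.66). Esm1, an often used tip cell marker, was at 39.1 ± 13.1 against 36.5 ± 12.4 CPM and did not pass the test (adjusted p = 0.56, higher in 4 of 8 mice). The Notch ligand Dll4 and the guidance receptor Unc5b were lower (log2 fold changes -0.30 and -0.50), and with the arterial-type cells left out of the comparison their values were -0.01 and -0.03, neither of which passed. In that comparison 13 tip cell genes were higher and 2 lower.

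Of 11 tested Notch pathway genes 0 were higher and 6 lower (median log2 fold change -0.21), while 5 did not pass, and 11 of 11 arterial genes were lower with a median log2 fold change of -1.64. Hey1, a target of Notch in arteries, was at 34.0 ± 18.4 against 172 ± 51.2 CPM and lower in 8 of 8 mice (log2 fold change -2.06, SE 0.09, adjusted p = 2.3e-13). Fbln5, an elastic fibre protein, was the furthest down under these limits, at 40.4 ± 33.8 against 231 ± 130.0 CPM (log2 fold change -2.35, SE 0.11, adjusted p = 7.1e-13). Gja4, the arterial connexin 37, was at 30.9 ± 23.9 against 162 ± 86.2 CPM (log2 fold change -2.20, SE 0.08, adjusted p = 2.0e-14). Sema3g, Sox17 and Efnb2 were lower too (log2 fold changes -2.24, -1.20 and -1.07), as were the Notch receptor Notch1 (-0.45) and its feedback regulator Nrarp (-0.38). The arterial-type cells among the other gated cells were chosen on 8 of these arterial genes. For Hey1, Fbln5, Gja4, Sema3g and Sox17 there is no value without these cells. Without them, Nrarp no longer passed (log2 fold change -0.13, adjusted p = 0.10). Clu, a chaperone named clusterin among the 8 lowest genes at -1.67, was then at 0.027.

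The other 4 of the 8 lowest genes were the macrophage genes C1qa, C1qb, C1qc and Lyz2 (log2 fold changes -2.04, -1.98, -2.07 and -2.03). All 6 macrophage markers were lower in Apln-type than in other gated cells. With cells that held 2 macrophage or 2 fibroblast markers left out of both classes, C1qa was at -0.15 and C1qc at -0.28, and neither passed the test. C1qb and Lyz2 stayed lower and still passed.

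Genes of the capillary list went both ways. Of 13 tested, 4 were higher and 7 lower (median log2 fold change -0.23). The fatty acid transporter Cd36 was at 1989 ± 394 against 2616 ± 603 CPM (log2 fold change -0.36, SE 0.03, adjusted p = 2.6e-09), and Cd300lg and Rgcc were lower as well (-0.64 and -0.50). Fabp5, a second fatty acid carrier, went up at 1743 ± 353 against 1186 ± 162 CPM (log2 fold change 0.57, SE 0.04, adjusted p = 9.3e-10).

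Of 17 basement membrane and matrix genes tested, 13 were higher and 2 lower (median log2 fold change 0.45). Lama4, a laminin chain of vessel walls, was at 219 ± 25.3 against 133 ± 8.89 CPM (log2 fold change 0.72, SE 0.05, adjusted p = 1.5e-10), and the collagen chaperone Serpinh1 at 1192 ± 236 against 741 ± 147 CPM (log2 fold change 0.71, SE 0.03, adjusted p = 5.8e-13). Col4a1 was higher (0.48). Col18a1 was lower at -0.36, but higher at 0.99 when arterial-type cells were left out. Of 14 actin and migration genes 12 were higher and 0 lower (median 0.43). Tmsb10, which binds actin monomers, was at 3669, 2947, 3098 and 2429 CPM in healthy and 3370.2, 3348, 3071 and 3631 CPM in MI mice, against 1100.2, 1140.2, 925 and 923 and 1399.8, 1656, 1601 and 1669 CPM in other gated cells. No mouse overlapped between the classes (log2 fold change 1.35, SE 0.07, adjusted p = 1.2e-12). Tubb6, a tubulin, and Actb were higher by 1.23 and 0.43 on the log2 scale.

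Of 11 genes of the Myc family and of ribosome biogenesis, 10 were higher and 0 lower (median 0.46). Odc1, the first enzyme of polyamine synthesis, was at 113 ± 21.0 against 46.0 ± 10.2 CPM (log2 fold change 1.29, SE 0.08, adjusted p = 2.9e-11), Nme1 rose by 0.59 and Npm1 by 0.50. Myc itself was near the floor, at 5.31 CPM in Apln-type cells, and did not pass (adjusted p = 0.25). Of 12 genes of the G1 and S phases, 11 were higher and 0 lower (median 0.70), although the rule had removed every cell with a UMI of Mki67 or Top2a. Cyclin D1 (Ccnd1) was at 502 ± 76.9 against 269.7 ± 48.1 CPM (log2 fold change 0.90, SE 0.06, adjusted p = 6.0e-11), and the replication genes Mcm2 and Gins2 were higher by 1.15 and 1.46 on the log2 scale, at 27.3 and 13.4 CPM in Apln-type cells against 12.2 and 4.30 CPM in other gated cells. Of 9 genes of G2 and mitosis 4 were higher, among them Cdk1 (0.70) and Cks2 (0.56).

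Metabolic, stress and imprinted genes were counted in the same way. Of 15 glycolysis genes 7 were higher and 0 lower (median 0.17), with Pkm at 0.48 and Gapdh at 0.29. The hypoxia list was split with 5 of 14 higher and 5 lower. Beside Adm, Ankrd37 (0.42) and Egln3 (1.16, higher in 6 of 8 mice) were higher, while Epas1, which encodes HIF-2 alpha, was at 212 ± 40.1 against 356 ± 51.3 CPM (log2 fold change -0.72, SE 0.05, adjusted p = 5.2e-11) and Bnip3 was lower (-0.59). Of 11 immediate early and heat shock genes 0 were higher and 9 lower (median -0.37), for example Fos (-0.51), Jun (-0.43) and Hspa1a (-0.68). These genes also answer to tissue digestion, and their part was not tested. Among 11 imprinted genes other than Mest, 1 was higher and 5 lower. Cdkn1c, an inhibitor of the cell cycle, was at 176 ± 56.8 against 452 ± 171 CPM (log2 fold change -1.29, SE 0.06, adjusted p = 2.1e-13), and Igf2 at 8.53 ± 3.93 against 37.9 ± 13.4 CPM (log2 fold change -1.99, SE 0.13, adjusted p = 9.0e-11). The imprinted list as a whole did not follow Mest.

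**Figure D3:**
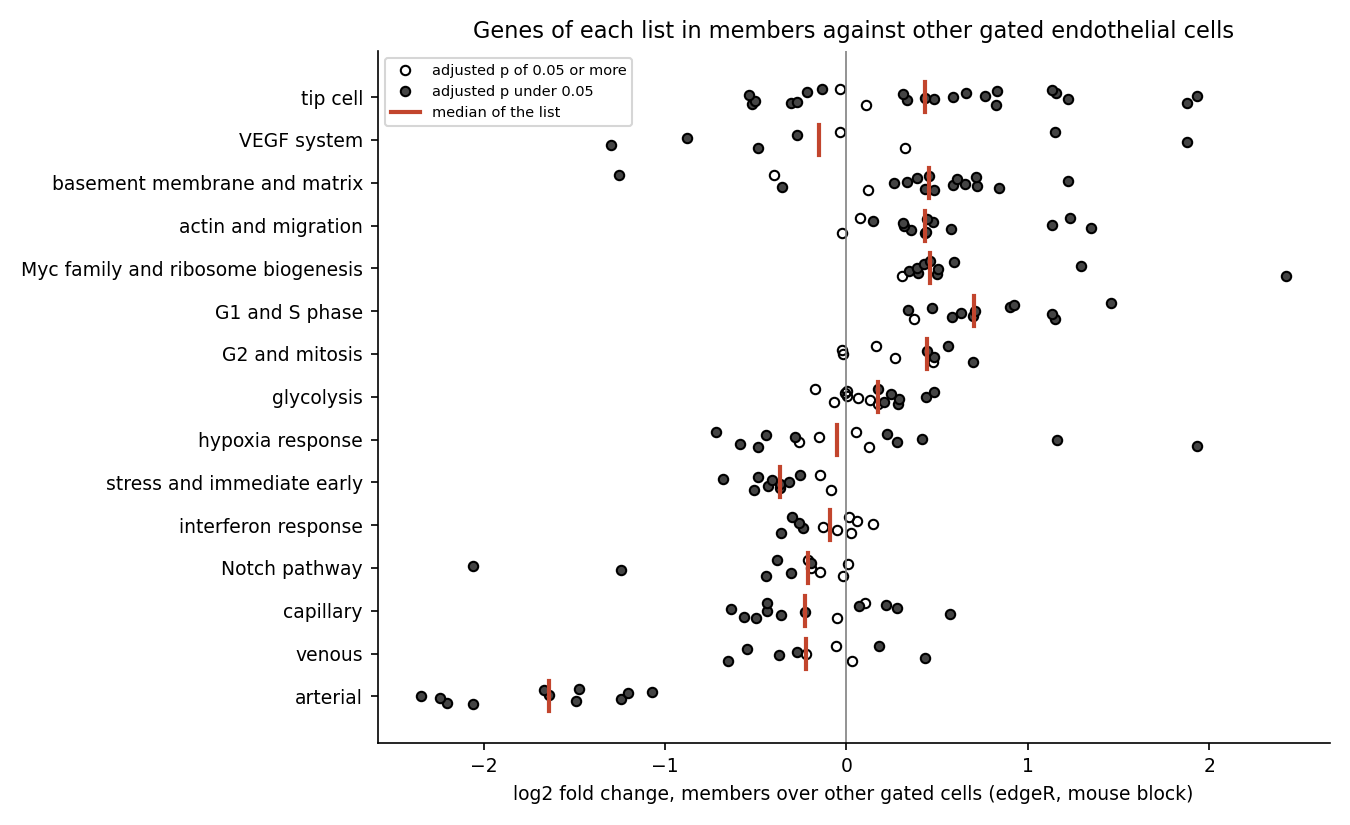
Log2 fold changes of single genes, Apln-type cells (members) over other gated cells, by gene list. Each point is a gene, filled where the adjusted p was under 0.05, and the red bar is the median of the list, such as 0.70 for G1 and S phase and -1.64 for arterial genes.

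Within the Apln-type cells, those with and without an Apln UMI were set side by side as a description. Cells with Apln were deeper (median of 4874 against 4109 UMIs). They held more Angpt2 (64.0 against 22.5 CPM, means over 8 mice), Pgf (114 against 46.5 CPM), Adm (284 against 139 CPM) and Kit (64.3 against 33.3 CPM), each in 8 of 8 mice. Odc1 was at 150.3 against 81.3 CPM. They held less Hey1 (21.3 against 44.6 CPM), Cdkn1c (121 against 223 CPM) and Flt1 (300.1 against 391 CPM), again in 8 of 8 mice. Aplnr, the receptor, was also lower in the cells that held its ligand (640.1 against 752 CPM, 8 of 8 mice), though it was higher in Apln-type than in other gated cells.

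Levels were also set out by the number of the 7 genes per cell. Adm was at 34.9 CPM in healthy gated cells with 0 of the 7 genes, at 102 with 2, at 169 with 3 and at 318 with 5. In MI mice it was at 31.7, 68.6, 98.4 and 203 CPM. The level was higher at each of these steps, the step across the limit from 2 to 3 genes included. Kit was at 18.8 and 37.2 CPM just outside and inside in healthy mice and at 15.7 and 27.0 in MI mice. Hey1 was lower inside the limit, in healthy mice with 83.4 CPM at 2 and 29.3 at 3 genes, against 113 and 68.5 in MI mice. Flt1 ran the other way from Adm as well, at 823 CPM with 0 genes and 283 with 5 in healthy mice and at 655 and 268 in MI mice. Aplnr did not keep climbing. It was at 315, 824 and 639 CPM with 0, 4 and 5 genes in healthy mice and at 278, 715 and 705 in MI mice. The bin of 6 or 7 genes held 65 and 8 healthy cells and under 20 in Healthy 227 and Healthy 228, and depth rose along the axis, from a median of 2003 UMIs with 0 genes to 5400 with 5.

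**Figure D4:**
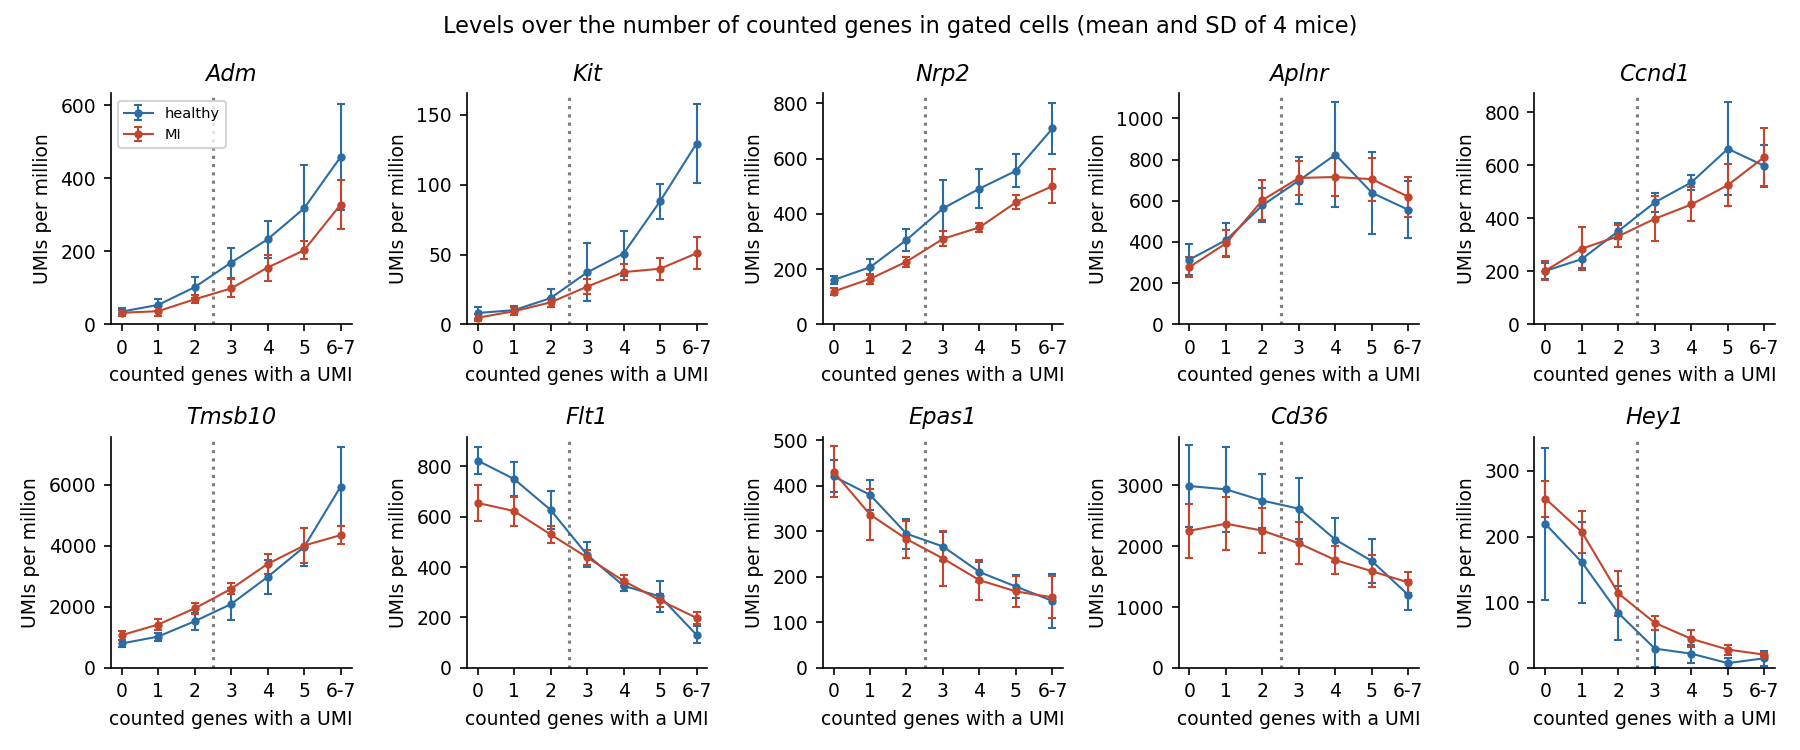
Levels of 10 genes in gated cells by the number of the 7 counted genes with a UMI, in CPM (mean and SD of 4 mice), for healthy mice (blue) and MI mice (red). The dotted line is the limit of the rule, with Apln-type cells to its right. Adm, Kit, Nrp2 and Tmsb10 were higher and Flt1, Epas1, Cd36 and Hey1 lower with 5 than with 0 genes in both groups, and Aplnr was highest at 4 genes.

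To ask how the infarct bears on cells of this type, Apln-type cells of MI mice were compared with those of healthy mice. Of 10131 genes tested, 627 were higher (6.19%) and 649 lower (6.41%) in MI. The counts changed with single libraries. They were 388 higher without Healthy 240, 358 higher and 351 lower without MI 244, 394 and 410 without MI 250, and 353 and 358 without MI 255. With the same Apln-type cells, chosen at full depth, thinned to 1000 UMIs they were 188 and 226. Without both Healthy 227 and Healthy 228 411 were higher. In cells with at least 4 of the 7 genes they were 278 and 344.

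Adm was lower in all 4 MI mice than in all 4 healthy mice (log2 fold change -0.63, SE 0.13, adjusted p = 0.01), and so was Kit (log2 fold change -0.74, SE 0.15, adjusted p = 0.0066). At an equal 1000 UMIs per cell neither passed (adjusted p = 0.15 and 0.11), with log2 fold changes of -0.47 for Adm and -0.67 for Kit. Angpt2 was at 64.9, 41.7, 53.9 and 57.2 CPM in the healthy mice and 26.0, 22.8, 33.3 and 32.7 CPM in the MI mice, with no overlap (log2 fold change -1.04, SE 0.17, adjusted p = 0.0024). Pgf was at 72.1 ± 32.7 CPM in healthy and 81.0 ± 9.65 CPM in MI mice and Aplnr at 700.2 ± 129 CPM in healthy and 699.6 ± 86.0 CPM in MI mice, both overlapping (adjusted p = 0.99 and 0.71). The co-receptors Nrp1 (log2 fold change -0.38, SE 0.10, adjusted p = 0.021) and Nrp2 (log2 fold change -0.47, SE 0.11, adjusted p = 0.017) were lower, and neither passed without both Healthy 227 and Healthy 228 (log2 fold changes -0.31 for both, adjusted p = 0.088 and 0.089). Without MI 244 their adjusted p was 0.068 and 0.059, and Nrp1 also lost its call without Healthy 240 or MI 255 (0.053 and 0.070) and in cells with at least 4 of the 7 genes (-0.35, adjusted p = 0.063).

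Of 23 tip cell genes tested, 4 were higher and 4 lower in MI (median log2 fold change 0.16, against -0.01 for all genes). Among the 4 higher were Igfbp3, a carrier of insulin-like growth factors, at 79.1 ± 27.7 CPM in healthy and 307 ± 33.9 CPM in MI mice (log2 fold change 1.82, SE 0.18, adjusted p = 1.6e-04), Marcksl1 at 89.4 ± 5.24 CPM in healthy and 233 ± 75.1 CPM in MI mice (log2 fold change 1.28, SE 0.20, adjusted p = 0.0021) and Lxn (0.61). Lxn did not pass without both Healthy 227 and Healthy 228 (adjusted p = 0.061) or in cells with at least 4 of the 7 genes (log2 fold change 0.40, adjusted p = 0.087). Of 11 Notch pathway genes 0 were higher and 1 lower. Of 8 VEGF genes 2 were lower, the co-receptors above, and 1 was higher (median -0.06). This was Vegfc (log2 fold change 0.44, SE 0.13, adjusted p = 0.04), whose adjusted p ran from 0.032 to 0.19 over its alternatives and was 0.080, 0.054, 0.14, 0.079, 0.086 and 0.094 without Healthy 228, 239, 240, MI 244, 250 and 255. Without both Healthy 227 and Healthy 228 it was 0.057, and at 1000 UMIs it was 0.071, with a log2 fold change of 0.78.

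Lrg1, a secreted glycoprotein that alters TGF-beta signalling, had the highest fold change of the genes named by the rule. It was at 0, 1.74, 3.42 and 0.636 CPM in the healthy mice and 46.0, 42.2, 72.4 and 57.8 CPM in the MI mice (log2 fold change 5.03, SE 0.44, adjusted p = 7.4e-05). Its healthy level was close to 0 in every mouse. AA467197, also known as Nmes1, was at 1.66, 3.48, 9.40 and 5.72 CPM in the healthy mice and 71.1, 47.8, 59.8 and 52.7 CPM in the MI mice (log2 fold change 3.22, SE 0.28, adjusted p = 7.4e-05). The other 6 of the 8 highest genes were markers or products of macrophages (Ctss, C1qc, Lyz2 and C1qb, log2 fold changes 4.16, 3.60, 3.44 and 3.38) and the matrix proteoglycans Dcn and Bgn (4.72 and 3.21). All 4 macrophage markers tested and all 3 fibroblast markers tested were higher in MI. When cells with 2 macrophage or 2 fibroblast markers were left out, 453 genes were higher and 502 lower, and the 4 macrophage markers still passed (median log2 fold change 1.96), while the 1 fibroblast marker that could then be tested did not. With the copied cells kept, C1qc had a log2 fold change of 1.64, against 3.60 without them, and did not pass (adjusted p = 0.079).

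All 8 of the lowest genes were gene models with a Gm number. These were Gm42726, Gm26737, Gm10126, Gm5093, Gm10263, Gm15013, Gm5611 and Gm17541, with log2 fold changes from -2.62 to -1.93. GENCODE lists 5 of the 8 as processed pseudogenes, Gm42726 and Gm26737 as antisense RNAs and Gm15013 as coding. Gm10263 was at 283, 509, 200.1 and 228 CPM in the healthy mice and 69.1, 76.7, 54.1 and 94.4 CPM in the MI mice in Apln-type cells and at 185, 369, 149.8 and 170.1 CPM in the healthy mice and 48.7, 62.3, 47.3 and 81.2 CPM in the MI mice in other gated cells, so it was low in both classes of MI cells. Of the 649 genes lower in MI, 43 (6.63%) were annotated pseudogenes, against 0 of the 627 higher genes and 57 (0.563%) of all genes tested. How the reads of near-identical copies were divided is not known, so these values are uncertain. Gm42726 and Gm15013 did not pass without both Healthy 227 and Healthy 228 (log2 fold changes -1.98 and -1.23, adjusted p = 0.051 and 0.055).

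Of 10 arterial genes tested, 8 were higher and 0 lower (median log2 fold change 0.97). Gja5, connexin 40, was at 0, 0, 2.56 and 3.81 CPM in the healthy mice and 33.4, 19.6, 34.0 and 34.9 CPM in the MI mice (log2 fold change 3.63, SE 0.46, adjusted p = 7.3e-04). Gja4 (2.13), Fbln5 (2.40), Mgp (2.68) and Stmn2 (0.93) were higher too. The count was 3 of 8 tested in thinned cells, where Gja4 did not pass (1.28, adjusted p = 0.080). Stmn2 did not pass in cells with at least 4 of the 7 genes (0.82, adjusted p = 0.069). Mgp did not pass without the cells that held macrophage or fibroblast markers (0.11) or without both Healthy 227 and Healthy 228 (0.084). Of 13 capillary genes, 0 were higher and 4 lower (median -0.37). The water channel Aqp1 was at 2164 ± 197 CPM in healthy and 1257 ± 417 CPM in MI mice (log2 fold change -0.87, SE 0.19, adjusted p = 0.011), Btnl9 at 308 ± 31.6 CPM in healthy and 225 ± 24.5 CPM in MI mice (log2 fold change -0.54, SE 0.11, adjusted p = 0.0088) and Cd300lg at 556 ± 25.3 CPM in healthy and 418 ± 59.4 CPM in MI mice (log2 fold change -0.49, SE 0.12, adjusted p = 0.017). Cd300lg had an adjusted p of 0.078 without both Healthy 227 and Healthy 228, and in cells with at least 4 of the 7 genes its log2 fold change was -0.24 (adjusted p = 0.23).

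Of 15 glycolysis genes 6 were higher and 0 lower in MI (median 0.31). Gapdh was at 491, 462, 489 and 468 CPM in the healthy mice and 808, 712, 764 and 706 CPM in the MI mice, with every MI mouse above every healthy mouse (log2 fold change 0.56, SE 0.09, adjusted p = 0.002). Pkm (0.82), Tpi1 (0.85) and the lactate carrier Slc16a3 (2.26) were higher as well. Of 14 hypoxia genes 2 were higher, among them Ddit4 (1.06), and 3 lower, Adm and P4ha1 (-0.89) among them. Of 16 matrix genes 3 were higher and 1 lower. Col18a1, the source of endostatin, was at 16.6, 24.3, 27.4 and 26.1 CPM in the healthy mice and 110.0, 92.4, 144 and 117 CPM in the MI mice (log2 fold change 2.15, SE 0.18, adjusted p = 7.4e-05), Col15a1 at 104 ± 19.9 CPM in healthy and 194 ± 21.3 CPM in MI mice (log2 fold change 0.79, SE 0.13, adjusted p = 0.0029) and Sparc at 3029 ± 396 CPM in healthy and 5036 ± 643 CPM in MI mice (log2 fold change 0.65, SE 0.11, adjusted p = 0.0034). The 1 lower gene was Lama4 (log2 fold change -0.32), whose adjusted p ran from 0.014 to 0.29 over its alternatives. It lost its call without Healthy 227, 228 or 239 or MI 244, 250 or 255 (adjusted p = 0.097, 0.069, 0.10, 0.081, 0.12 and 0.10), and its adjusted p was 0.14 without both Healthy 227 and Healthy 228.

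Genes of cell division were compared next. Of 9 genes of G2 and mitosis, 8 were higher and 0 lower (median log2 fold change 1.72), in cells chosen to hold no Mki67 or Top2a. In other gated cells these 9 genes were also higher in MI, with sums of 37.1 to 45.4 CPM in healthy and 90.5 to 164 CPM in MI mice. In Apln-type cells Ccnb2, a mitotic cyclin, was at 0, 0, 2.56 and 1.91 CPM in the healthy mice and 20.9, 17.8, 17.4 and 10.6 CPM in the MI mice (log2 fold change 3.37, SE 0.48, adjusted p = 0.0012). Birc5, the survivin gene, was at 2.23 ± 1.36 CPM in healthy and 17.3 ± 3.47 CPM in MI mice (log2 fold change 3.18, SE 0.39, adjusted p = 6.3e-04). Cks2 (1.38) and Cdk1 (1.61) rose from higher levels, and Cdk1 had an adjusted p of 0.063 without Healthy 240 and of 0.052 without both Healthy 227 and Healthy 228. Only 2 of these genes could be tested in thinned cells, where 1 passed, and Cks2 was at an adjusted p of 0.062. Of 12 genes of G1 and S phases 3 were higher. Mcm2, 1 of them, was at 19.7 ± 4.81 CPM in healthy and 34.9 ± 10.0 CPM in MI mice (log2 fold change 0.85, SE 0.26, adjusted p = 0.048), and its adjusted p ran from 0.010 to 0.19 over its alternatives. It was above 0.05 without any 1 of Healthy 227, 228, 239 and 240 and MI 244, 250 and 255 (0.058, 0.076, 0.098, 0.19, 0.10, 0.088 and 0.077), and it was 0.082 without both Healthy 227 and Healthy 228, 0.18 at 1000 UMIs and 0.14 in cells with at least 4 of the 7 genes. Myc was at 1.66, 1.74, 0 and 0 CPM in the healthy mice and 10.7, 7.75, 11.3 and 9.28 CPM in the MI mice (log2 fold change 4.07, SE 0.62, adjusted p = 0.0017).

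Of 10 interferon response genes 6 were higher and 0 lower in MI (median 0.78). Irf7, a transcription factor of this response, was at 84.9, 71.3, 84.6 and 90.9 CPM in the healthy mice and 306, 362, 523 and 221 CPM in the MI mice (log2 fold change 1.99, SE 0.22, adjusted p = 3.4e-04). Isg15 was at 271 ± 58.6 CPM in healthy and 490.1 ± 118 CPM in MI mice (log2 fold change 0.76, SE 0.18, adjusted p = 0.016) and the chemokine Cxcl10 at 21.6 ± 9.67 CPM in healthy and 84.5 ± 43.8 CPM in MI mice (log2 fold change 1.83, SE 0.43, adjusted p = 0.017). Without both Healthy 227 and Healthy 228, Isg15 and Cxcl10 had adjusted p-values of 0.086 and 0.11, and 3 of the 10 genes were higher. Without Healthy 240, that of Cxcl10 was 0.073.

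Whether MI moved genes by a different amount in Apln-type than in other gated cells was tested as an interaction. The make-up of the other gated cells differed between the groups. Cells with 2 of the 7 genes were 1435 of 8500 in healthy and 2419 of 6174 in MI mice, and cells with 0 were 3969 and 1280. The part of this mix in the unequal MI effects was not tested. Of 11559 genes, 49 (0.424%) moved more towards higher values in Apln-type cells and 42 (0.363%) more towards lower ones. The counts were unstable. They were 10 and 11 without Healthy 239, 26 and 25 without Healthy 227, 20 higher without Healthy 228 or without MI 250, and 65 lower without MI 256. With matched other gated cells they were 30 and 17, and at 1000 UMIs 16 and 22. Without a filter on low counts they were 156 and 115, and in cells with at least 4 of the 7 genes 96 and 74. Without both Healthy 227 and Healthy 228 they were 9 and 13. Among lists named for MI above, the interaction passed for 0 of 9 G2 and mitosis, 0 of 15 glycolysis, 1 of 10 interferon response and 3 of 11 arterial genes. A gene that did not pass is not shown to have moved equally in both classes.

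Ccl2, a chemokine that draws monocytes, had a lower MI effect in Apln-type cells than in other gated cells. In Apln-type cells it was at 23.3, 48.7, 150.5 and 134 CPM in the healthy mice and 48.6, 34.6, 50.8 and 25.6 CPM in the MI mice. In other gated cells it was at 2.19, 6.58, 12.6 and 15.1 CPM in the healthy mice and 80.8, 24.4, 47.6 and 32.3 CPM in the MI mice, where every MI mouse was above every healthy mouse. The difference of the MI effects was -3.48 on the log2 scale (SE 0.25, adjusted p = 2.4e-08), and it passed under each alternative run for it. Within Apln-type cells alone the groups overlapped, and the fall of Ccl2 (log2 fold change -1.39, adjusted p = 0.024) did not pass without Healthy 239, Healthy 240 or MI 250 (0.10, 0.11 and 0.065) or by DESeq2 (0.15). Pgf overlapped between healthy and MI Apln-type cells, while in other gated cells every MI mouse was above every healthy mouse, with 7.21 ± 6.82 and 31.5 ± 9.42 CPM (difference of the effects -1.87, adjusted p = 7.3e-04), and it too passed under each alternative.

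The other genes with the lowest values were Cxcl2, a neutrophil chemokine (-2.02, adjusted p = 0.027), the protease Adamts4 (-1.84, adjusted p = 0.008) and the membrane protein Tmem176a (-1.24, adjusted p = 1.9e-04). With matched cells none of these 3 passed (adjusted p = 0.24, 0.11 and 0.051), with differences of -1.50, -1.78 and -0.75. Without both Healthy 227 and Healthy 228, Cxcl2, Adamts4, Ccnd1 and Npm1 did not pass (0.22, 0.11, 0.11 and 0.10). Cxcl2 did not pass without Healthy 227, 228, 239 or 240 (0.15, 0.059, 0.14 and 0.077) and Adamts4 not without Healthy 239 (0.067). Tmsb10 (-0.46), Col15a1 (-0.91), Ccnd1 (-0.38) and Npm1 (-0.30) also passed on this side. With matched cells Col15a1, Ccnd1 and Npm1 did not (0.20, 0.62 and 0.22), with differences of -0.61, -0.16 and -0.25. At 1000 UMIs Adamts4 (adjusted p = 0.72) and Npm1 (0.18) did not pass. Without Healthy 239, Tmsb10, Ccnd1 and Npm1 did not (0.065, 0.092 and 0.092). Ccnd1 and Npm1 further lost their calls without MI 250 (0.068 and 0.097), and Npm1 without Healthy 227, Healthy 240 or MI 255 (0.088, 0.085 and 0.058).

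On the side of higher values were C1qc (1.75), Clu (1.29), Gja4 (0.99), Rapgef4 (0.93), an exchange factor for the GTPase Rap1, and the mitochondrial carrier Slc25a24 (0.91), with adjusted p-values of 0.016, 0.008, 0.035, 0.0071 and 0.027. At 1000 UMIs none of the 5 passed (0.68, 0.34, 0.98, 0.25 and 0.58), with differences of 1.67, 1.04, 0.08, 1.02 and 0.95. With matched cells Rapgef4 (0.65, adjusted p = 0.21) and Slc25a24 (0.71, adjusted p = 0.28) did not pass. In cells with at least 4 of the 7 genes C1qc, Clu, Gja4 and Slc25a24 did not (0.17, 0.054, 0.087 and 0.16), and without arterial-type cells C1qc, Clu and Slc25a24 did not (0.11, 0.064 and 0.075). Without both Healthy 227 and Healthy 228 the 5 had adjusted p-values of 0.074, 0.10, 0.26, 0.080 and 0.22. Rapgef4 was at 21.5 ± 5.56 CPM in healthy and 24.5 ± 2.64 CPM in MI mice in Apln-type cells and at 64.6 and 39.1 CPM in other gated cells, and had an adjusted p of 0.067 without Healthy 239. With cells holding 2 macrophage or 2 fibroblast markers left out, C1qc, Gja4 and Slc25a24 did not pass (0.64, 0.17 and 0.073), with differences of 0.79, 0.76 and 0.83. Without the cells of the highest doublet scores C1qc did not pass (1.66, adjusted p = 0.12). It was at 0.099 and 0.22 without Healthy 239 and 240, and Clu at 0.070 without Healthy 240. Gja4 ran from 0.058 to 0.12 without any 1 of the healthy mice, MI 244 or MI 250, and Slc25a24 from 0.055 to 0.11 without any 1 of the healthy mice, MI 244, 250 or 255.

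**Figure D5:**
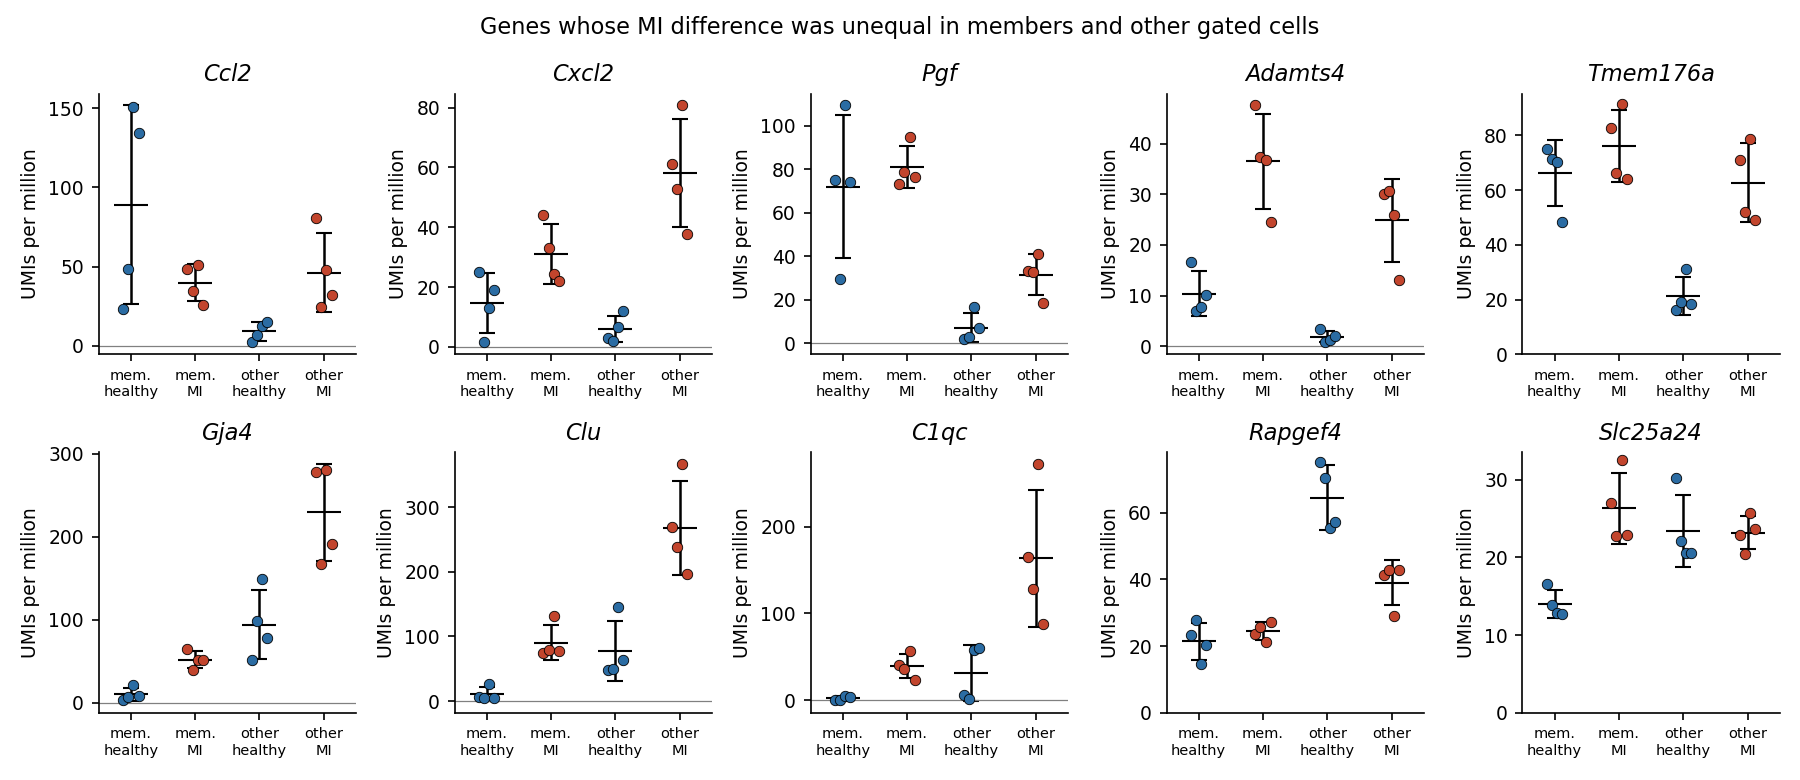
Levels of the 10 genes named for unequal MI differences, in CPM per mouse with mean and SD, for Apln-type cells (mem.) and other gated cells (other) of healthy (blue) and MI (red) mice. For Ccl2 and Pgf the healthy Apln-type cells were above the healthy other cells, and in other cells every MI mouse was above every healthy mouse.

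Apln-type cells were set against 2 neighbouring endothelial states. Against the arterial-type cells of the same mice, 2116 of 9900 genes were higher (21.4%) and 1764 lower (17.8%), and in thinned cells 981 and 937. Adm (log2 fold change 3.75, SE 0.15, adjusted p = 1.6e-14), Kit (log2 fold change 3.20, SE 0.26, adjusted p = 1.5e-09) and Aplnr (log2 fold change 2.81, SE 0.14, adjusted p = 6.7e-13) were higher. Nrp2 (2.60), Aqp1 (2.39) and Angpt2 (1.5) were higher, while Vegfc (-2.49), Efnb2 (-1.90), the kinase Bmx (-3.05) and Igf2 (-3.23) were lower. Of 23 tip cell genes 16 were higher and 6 lower, and of 13 capillary genes 8 and 3. Markers of other cell types moved with this comparison, with 4 of 6 erythroid or platelet genes (median log2 fold change 2.40) and 5 of 6 cardiomyocyte genes (0.74) higher and 6 of 6 macrophage genes lower. Of 5 fibroblast genes 3 were higher (0.96), both smooth muscle genes tested were lower (-1.36), and 1 of 2 pericyte genes was higher. Their part in the result was not tested.

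Against Plvap-high cells, which hold at least 3 UMIs of Plvap and fewer than 3 of the 7 genes, only the 4 MI mice could be used, as 874 of 896 such cells came from MI hearts. Of 10460 genes 1234 were higher (11.8%) and 1482 lower (14.2%) in Apln-type cells. DESeq2 gave 726 and 865, and thinned cells 452 and 516. All 13 capillary genes were higher (median log2 fold change 0.80), such as the carbonic anhydrase Car4 (log2 fold change 2.40, SE 0.12, adjusted p = 3.8e-12), Lpl, which encodes lipoprotein lipase (log2 fold change 2.14, SE 0.09, adjusted p = 7.1e-13), and the transcription factor Meox2 (1.08). Of 9 venous genes 8 were lower and 0 higher. Lrg1, named above for its difference between MI and healthy Apln-type cells, was lower in them than in Plvap-high cells (log2 fold change -4.37, SE 0.10, adjusted p = 1.9e-17), as were Vwf (-2.73) and the venous factor Nr2f2 (-1.62). Adm (log2 fold change 2.54, SE 0.11, adjusted p = 6.1e-13), Pgf (1.87) and Ccnd1 (1.39) were higher in Apln-type cells, and Hif1a (-0.99) and Col15a1 (-0.91) were lower. Of 12 genes of G1 and S phase 10 were higher and 1 lower. Macrophage markers moved with this comparison as well, as 31.1% of Apln-type and 42.4% of Plvap-high cells of MI mice held at least 2 of them. Of 5 erythroid or platelet genes 4 were higher in Apln-type cells (median log2 fold change 3.98), and of 6 cardiomyocyte genes 3 (0.98). All 6 macrophage genes (-1.19), all 3 lymphatic genes tested (-2.87) and 3 of 4 endocardial genes (-2.15) were lower, and their part in the result was not tested. Without cells that held 2 macrophage or 2 fibroblast markers the counts were 838 higher and 955 lower.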

How the data were processed

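Single cells were measured with the 10X Chromium 3′ assay in 8 libraries, 1 per mouse. The authors deposited 1 table of raw UMI counts of 16791 genes in 31028 cells, made with Cell Ranger on mm10 and filtered in R 3.5.2 and Seurat 2.3 (submitters' processing notes) by removing cells under 400 genes or above 20% mitochondrial UMIs. The deposited counts are raw. The authors log normalised them for their own analysis, which was not used here. Copied barcodes were dropped, and the counts of Apln-type cells and comparison cells were summed per mouse. Mice were the replicates, grouped by the labels. Sums were tested with edgeR 4.0.16 in R 4.3.3 (TMM, filterByExpr, quasi-likelihood test, Benjamini-Hochberg adjustment over all genes tested, threshold 0.05), with the mouse as a block between classes of cells. Shares are given per mouse without p-values, since the group was chosen with such shares in view. Counts per cell were handled in Python 3.11.15 (scanpy 1.11.5, pandas 2.3.3, scipy 1.17.1, numpy 2.4.6).

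The cells and the gene lists were chosen with earlier results of these data known. The text names the 16 genes of the rule, the 8 most raised and the 8 most lowered genes by log2 fold change between MI and healthy and between classes (5 and 5 for the interaction) among genes past the threshold, with at least 20 CPM and no overlap of groups or the same direction in every mouse, and genes of the lists as examples, chosen after their values were seen. Alternatives were DESeq2 1.42.0, no filter on low counts, and cells thinned to 1000 or 2000 UMIs. Others were at least 2 or 4 of the 7 genes, copied cells kept, sex as a covariate, and no mouse block. Other gated cells were also matched on UMIs in bins of 0.25 log2 units, and each mouse was left out in turn. Sex was called from the level of Xist in the summed Apln-type cells and not from a label. The paper used male and female mice, and the sex of each mouse is not given here. Leaving out Healthy 227 and 228 together, cells with 2 macrophage or 2 fibroblast markers, or arterial-type cells was added after seeing the data. Scrublet's own threshold marked 6 cells as doublets, too few to have worked, so the 995 cells with the highest scores were left out as an alternative. The fits were tested on simulated data, where 2-fold changes were recovered for 78.8% of genes between MI and healthy Apln-type cells, for 68.7% for the interaction and for 90.9% between Apln-type and other gated cells. False calls were 5.67% to 8.16% of the calls over the 5 comparisons. Library totals of 6764977 to 27244947 UMIs set the precision. The labels do not say whether mice were litter mates or shared a day.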

Additional observations from a re-analysis of the deposited data

Results flagged for a closer look

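The 10 genes named for an unequal MI difference between Apln-type and other gated cells stand out because the difference itself passed a test. Its values on the log2 scale were 1.75 for C1qc, 1.29 for Clu, 0.99 for Gja4, 0.93 for Rapgef4, 0.91 for Slc25a24, -3.48 for Ccl2, -2.02 for Cxcl2, -1.87 for Pgf, -1.84 for Adamts4 and -1.24 for Tmem176a. Ccl2 and Pgf passed under each alternative run for them.

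In 14 of 260 groups of 4 mice, 1 mouse stood far from the other 3, where the limit used (Dixon's 95% value) passes about 1 in 20 groups by chance. All 14 were levels of a named gene within Apln-type cells. Healthy 228 stood apart for Bgn (19.1 CPM), Lxn (93.8 CPM) and Npm1 (513 CPM). Healthy 227 did so for Aplnr (509 CPM), Unc5b (34.9 CPM) and Nr2f2 (15 CPM), and Healthy 239 for Clu (26.5 CPM) and Mgp (50.4 CPM). Among MI mice, MI 256 stood apart for Trp53i11 (504 CPM), Cks2 (31.9 CPM) and Epas1 (279 CPM), MI 250 for Gja5 (19.6 CPM) and Lpl (415 CPM), and MI 255 for Clu (131 CPM). No single mouse accounted for more than 3 of these.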

How the results depend on the processing

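The difference in share kept its direction under each alternative, but its size moved. It was 32.5 percentage points as a share of gated cells and 11.5 with at least 4 of the 7 genes. At 1000 UMIs it was 13.6 with at least 2 and 1.73 with at least 4 of the 7 genes. With 1 mouse left out at a time the difference ran from 15.5 to 19.7 percentage points, and at 1000 UMIs from 4.66 to 6.73. It was 9.54 at 2000 UMIs, and 14.6 and 4.0 (at 1000 UMIs) without Healthy 227 and 228. Genes higher and lower in MI within Apln-type cells numbered 188 and 226 in thinned cells, 278 and 344 in cells with at least 4 of the 7 genes, 411 (higher) without Healthy 227 and 228, and 353 to 717 and 351 to 822 with 1 mouse left out. Against other gated cells, 950 and 918 passed in thinned cells, 808 and 676 without the mouse block, and 1727 to 2022 and 1728 to 2064 with 1 mouse left out. Unequal MI effects numbered 156 and 115 without a filter on low counts, 16 and 22 in thinned cells, 96 and 74 with at least 4 genes, 30 and 17 with matched cells, 9 and 13 without Healthy 227 and 228, 67 (lower) without arterial-type cells, and 10 to 54 and 11 to 65 with 1 mouse left out. Against arterial-type cells 981 and 937 passed in thinned cells. Against Plvap-high cells DESeq2 gave 726 and 865, thinned cells 452 and 516, and 955 were lower without cells holding macrophage or fibroblast markers. The cause of these shifts was not tested, apart from fewer UMIs, cells or mice where the alternative removes them. Of 2612 alternative values for 153 gene results, 2462 kept direction and side of the threshold, 148 lost the call and 2 reversed against other gated cells without arterial-type cells, namely Clu (0.027) and Col18a1 (0.99).

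No paired analysis was possible between MI and healthy mice because the groups share no replicate numbers. Replicate block: comparisons between classes of cells were made within mice, and without that block 808 genes were higher and 676 lower against other gated cells. Depth limits the genes near 1 UMI per cell class in the healthy mice, where Apln-type cells summed to 575423 to 1573426 UMIs per mouse.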
